A study of Mus musculus with 3 samples.

Results

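Nodal, Gdf3, Tdgf1, Lefty1, Lefty2, Cer1, Otx2, Pou3f1 and Zic2 are genes of Nodal signalling and of the anterior epiblast, and their RNA was compared between Dido mutant and wild-type mouse embryoid bodies. The 9 genes were taken by symbol, out of 30119 genes on the array, and 13 probes of 39429 carried these symbols. Embryoid bodies are suspended clumps in which embryonic stem cells differentiate. They had been cultured for 10 days in suspension on low attachment plates without LIF, the cytokine that keeps mouse embryonic stem cells in self-renewal. The mutant, Dido3deltaCT+HADidoNT in the labels, makes Dido3 protein that lacks its C terminus, and it overexpresses in addition the HA-tagged N terminus common to the Dido isoforms, where the PHD domain lies. The control is labelled as wild type. Each of 3 arrays received the cRNA of 1 mutant and 1 wild-type replicate in 2 colours, with Cy3 on the mutant for arrays 1 and 3 and Cy5 on the mutant for array 2. The labels call the replicates biological but do not say whether they came from separate lines or clones. The truncation and the added N-terminal region occur together in the mutant, so their parts cannot be told apart.

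Nodal is a secreted TGF-beta family ligand that acts with its relative Gdf3 through activin receptors and the membrane coreceptor Tdgf1 (Cripto), and it signals to the nucleus through Smad2, Smad3 and the transcription factor Foxh1. The pathway switches on its own ligand and its own secreted inhibitors, Lefty1 and Lefty2, so that an active domain limits itself. In the early embryo Nodal keeps the epiblast pluripotent and patterns the front-to-back axis, while Cer1, secreted by the anterior visceral endoderm, blocks Nodal on the anterior side. Otx2, Pou3f1 (Oct6) and Zic2 are transcription factors of the primed epiblast and of the anterior neural plate that arises from it.

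Upstream sequences are shown for 3 members, namely a ligand (Nodal), a coreceptor (Tdgf1) and a transcription factor (Otx2), to show where the letters of the Foxh1 motif occur. RefSeq sequences of build GRCm38.p6 were matched by symbol for 4 of the 9 genes, Nodal, Tdgf1, Cer1 and Otx2, with 7 windows of 250 bases that end at the base before an annotated start. Each line reads 5′ to 3′ along the gene, and capitals mark matches to the Foxh1 motif AATNNACA on either strand.
Nodal, chr10:61417722-61417971, plus strand: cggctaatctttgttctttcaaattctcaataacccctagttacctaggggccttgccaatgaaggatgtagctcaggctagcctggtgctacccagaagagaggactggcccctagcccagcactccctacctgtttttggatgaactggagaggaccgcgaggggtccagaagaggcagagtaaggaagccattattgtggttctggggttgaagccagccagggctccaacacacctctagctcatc
Tdgf1, chr9:110946159-110946408, minus strand: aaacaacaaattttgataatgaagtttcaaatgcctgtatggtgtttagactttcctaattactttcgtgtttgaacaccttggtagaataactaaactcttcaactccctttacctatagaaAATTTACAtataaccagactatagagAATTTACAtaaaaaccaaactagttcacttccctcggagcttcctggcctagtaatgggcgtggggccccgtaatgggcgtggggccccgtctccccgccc
Otx2, chr14:48667645-48667894, minus strand: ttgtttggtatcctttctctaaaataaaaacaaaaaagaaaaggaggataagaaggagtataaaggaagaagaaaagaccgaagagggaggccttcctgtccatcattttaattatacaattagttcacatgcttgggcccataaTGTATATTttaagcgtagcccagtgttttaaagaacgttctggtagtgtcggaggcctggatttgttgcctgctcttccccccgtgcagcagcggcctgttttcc
The Tdgf1 window held 2 matches, both AATTTACA, which began 127 and 101 bases before the start. The most distal Otx2 window held 1 match, TGTATATT, on the opposite strand at 105 bases before the start. An overlapping Otx2 window held the same match, at 241 bases before its own start. Another Otx2 window, chr14:48665110-48665359, held 1 match to the Otx2 motif, GGATTA on the opposite strand, at 211 bases before its start. The windows of Nodal and Cer1, and the Otx2 window chr14:48662735-48662984, held no match to the Foxh1 motif, to the octamer ATGCAAAT or to the Otx2 motif TAATCC. That says only that these letters are not in those windows. Over all 32851 upstream windows of this length, 10.9% held the Foxh1 motif, 1.6% the octamer and 6.25% the Otx2 motif on either strand. These matches describe the letters and were not tested as sites.

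Arrays were probed with 60-base oligonucleotides, and every member probe was printed as 1 spot per array. All 13 member probes passed the filter on dim probes. Of the 39 member spots, 4 carried the scanner software's outlier flag, and they belonged to Nodal and Gdf3 on array 1 and to Tdgf1 and Lefty2 on array 3. Values are given below for all 3 arrays with those spots named, and the tested mean of these 4 genes leaves the spot out and rests on 2 arrays. The brightest probe stood for each gene. A level is the log2 intensity of 1 channel after normalization, comparable between samples for 1 probe and not between probes. A ratio is the log2 mutant level minus the log2 wild-type level on the same array, negative when the mutant is lower. Ratios were tested against 0 with limma, and p-values were adjusted by the Benjamini-Hochberg method over all 20100 genes tested. No member passed an adjusted p of 0.05 in either direction, against 264 genes or 1.31% of all genes tested, 200 of them higher (0.995%) and 64 lower (0.318%). At an unadjusted p under 0.05, 5 of the 9 members were lower (Tdgf1, Lefty1, Lefty2, Otx2 and Zic2) and 0 were higher. Of all 20100 genes tested, 19.5% passed that level in either direction, 7.59% lower, and 2403 genes were higher. With flagged spots counted, 4 of the 9 were lower, against 1544 of 20135 genes. Tdgf1 was not among these 4, at an unadjusted p of 0.0650 (limma). The 9 genes were chosen with earlier results of these data known, so these counts describe them and are no test of the group.

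Median spot intensity was 192 to 288 in green and 150 to 210 in red across the 3 arrays, and no spot was saturated. Array 2 had 25 spots with a local background above 100 units and the other arrays had none. The gene mutated in these cells, Dido1, had 4 probes, whose mean log2 ratios ran from -3.60 to 3.03. The lowest, A_52_P226127, was at -3.60 ± 0.17 (SD, n = 3), and A_66_P128564 was the highest at 3.03 ± 0.34 (SD, n = 3). The files give probe positions on mm9 and probe sequences, but which part of the gene each Dido1 probe reports was not assigned. Only 3 arrays limit the precision throughout. The p-values rest on the spread between these pairs, 2 of them for Nodal, Gdf3, Tdgf1 and Lefty2, and in part on a variance drawn from all genes.

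Nodal itself was lower in the mutant on arrays 1 and 2 and higher on array 3. Its probe A_52_P633560 lies on mm9 chr10:60887790-60887849, plus strand. Its level was 8.78, 9.57 and 12.22 in mutant replicates 1, 2 and 3, and 10.63, 10.96 and 11.02 in the wild-type replicates. The wild-type levels lay within 0.39 of each other while the mutant levels spanned 3.44, from below to above the wild-type range. The mutant was 3.62-fold lower on array 1, where the spot was flagged, 2.63-fold lower on array 2 and 2.30-fold higher on array 3. Without the flagged spot the mean ratio was -0.10 ± 1.83 (SD, n = 2), with a 95% confidence interval from -2.15 to 1.95 and an adjusted p of 0.963 (limma, Benjamini-Hochberg). With it the mean was -0.68 ± 1.65 (SD, n = 3), adjusted p = 0.623 by the same test. The interval spans 0 widely, so the data do not settle the direction for Nodal.

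Gdf3, the Nodal-related ligand, had the same order of ratios. Its brighter probe, A_66_P107818 on mm9 chr6:122556340-122556399, minus strand, carries this sequence, shown because it is the stretch of the Gdf3 transcript whose level is reported here.
Gdf3 probe: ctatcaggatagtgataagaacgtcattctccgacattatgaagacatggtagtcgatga
The Gdf3 level was 8.08, 8.51 and 11.46 in the mutant replicates against 10.24, 10.35 and 10.63 in the wild type. Mutant replicates 1 and 2 were below every wild-type level and mutant replicate 3 was above every one. The ratios were -2.16 on array 1 (flagged), -1.84 on array 2 and 0.83 on array 3, with a mean of -0.51 ± 1.89 (SD, n = 2) without the flagged spot and an adjusted p of 0.768 (limma, Benjamini-Hochberg). The dimmer probe, A_55_P2158448 on chr6:122555421-122555480, gave the same signs at smaller size, -0.67, -0.49 and 0.49. No spot of that probe was flagged, so the sign on array 1 does not rest on the flagged spot alone.

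**Figure D1:**
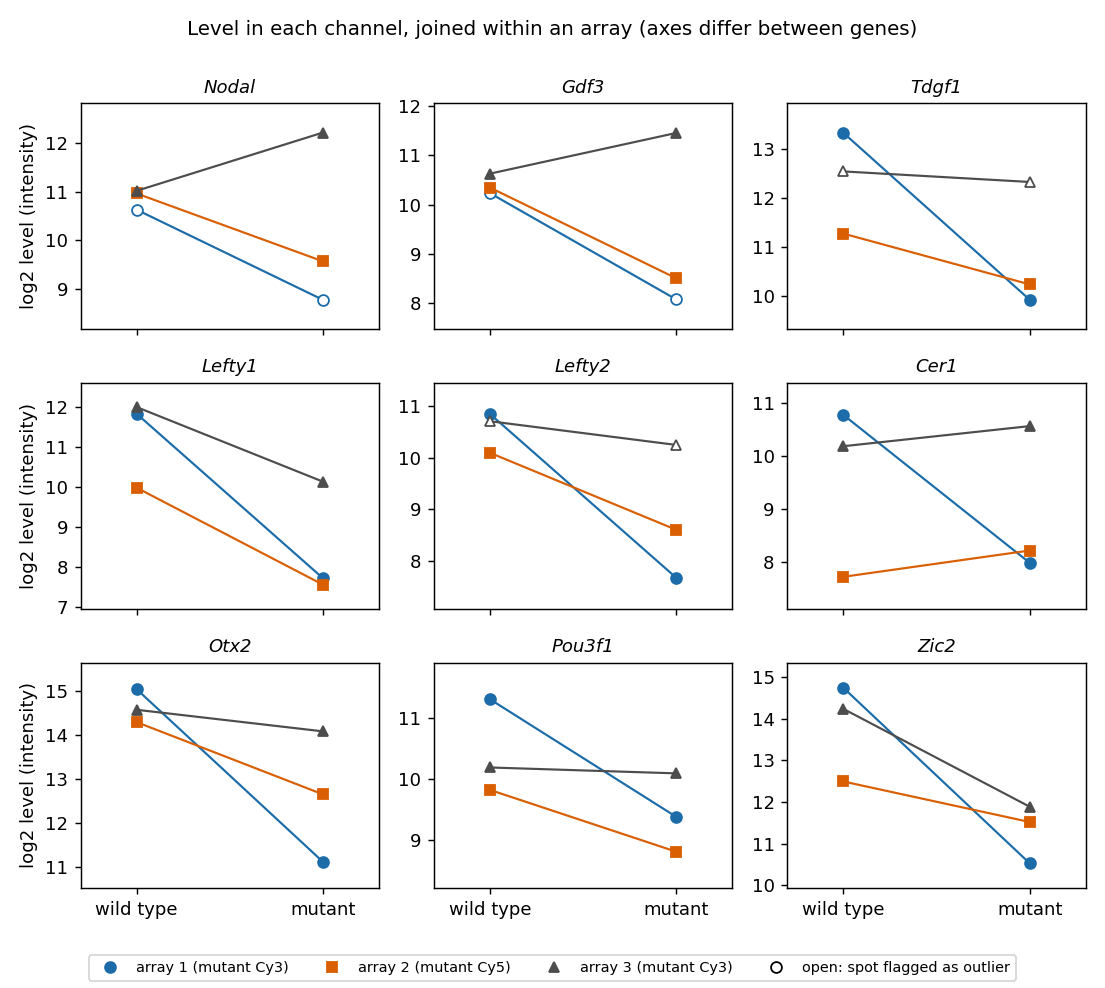
Log2 level of each gene's brightest probe in the wild-type and mutant channels, with a line joining the 2 samples of an array; open symbols are spots with an outlier flag, and the vertical axes differ between genes. The mutant sample of array 3 is the highest of the 3 mutant samples in every panel, and Otx2 and Zic2 are the genes whose mutant and wild-type levels do not overlap.

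Tdgf1, the coreceptor that Nodal and Gdf3 need, was measured by 3 probes that did not give the same size of ratio. The brightest, A_55_P2183147 on mm9 chr9:110843099-110843158, minus strand, had a level of 9.92, 10.24 and 12.33 in the mutant and 13.34, 11.27 and 12.55 in the wild type. Mutant replicates 1 and 2 were below all wild-type levels, and mutant replicate 3 lay between them. The ratios were -3.41, -1.04 and -0.22, the last from a flagged spot. Without that spot the mean was -2.23 ± 1.68 (SD, n = 2), with an interval from -4.13 to -0.33, an unadjusted p of 0.0318 and an adjusted p of 0.205 (limma, Benjamini-Hochberg). With the flagged spot the mean was -1.56 ± 1.66 (SD, n = 3), adjusted p = 0.288 by the same test.

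The other Tdgf1 probes were free of flags and both were higher in the mutant on array 3. A_55_P2058540 on chr9:110842866-110842925 gave ratios of -2.08, -2.13 and 0.60, with a mean of -1.20 and an unadjusted p of 0.109 (limma, probes tested singly). A_55_P1968028 on chr9:110842722-110842781 gave -0.19, -0.24 and 0.73, with a mean of 0.098 and an unadjusted p of 0.734 by the same test. All 3 Tdgf1 probes were therefore lower in the mutant on arrays 1 and 2, by amounts that differed between probes, and they disagreed in sign on array 3. Whether the probes report different transcripts was not tested.

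**Figure D2:**
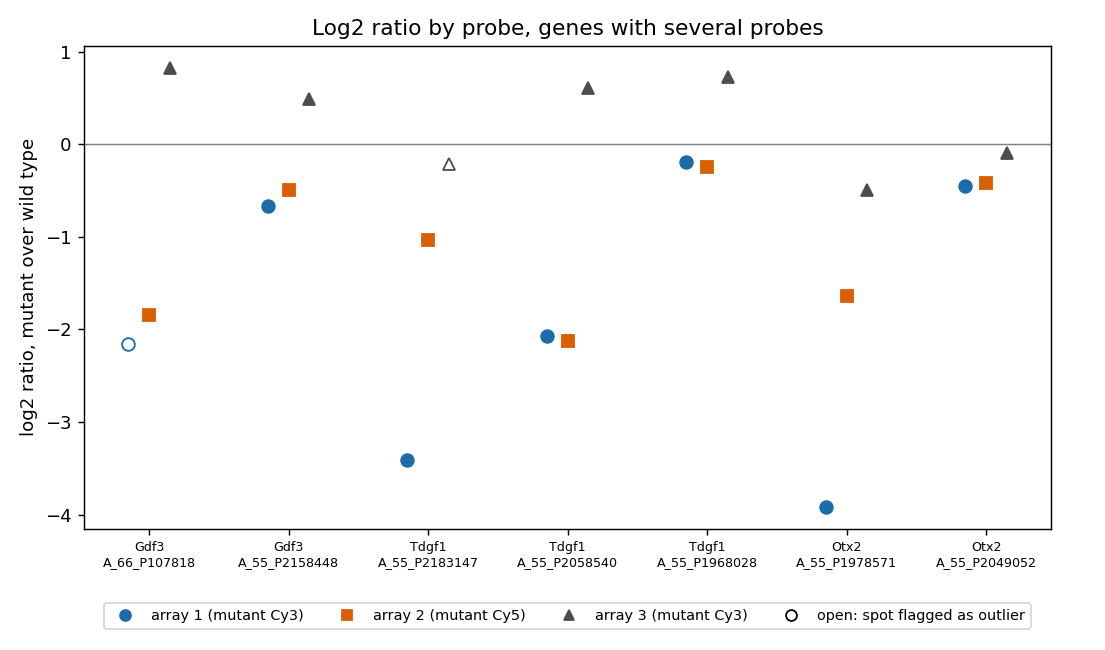
Log2 ratio of mutant over wild type on each array for every probe of the 3 genes with several probes; symbols are arrays, and open symbols are spots with an outlier flag. For Gdf3, Tdgf1 and Otx2 each probe is lowest on array 1 or 2 and highest on array 3, and the Tdgf1 probes fall on both sides of 0 on array 3.

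Lefty1, a secreted inhibitor that binds Nodal and its coreceptor and is a direct target of Nodal signalling, was the member with the smallest p and was lower in the mutant on every array. Its probe, A_51_P354706, lies on mm9 chr1:182868137-182868196, plus strand. The level was 7.72, 7.56 and 10.13 in the mutant replicates and 11.83, 9.98 and 12.00 in the wild type. The mutant sample was 17.3-fold, 5.36-fold and 3.64-fold lower than the wild-type sample of the same array. Mutant replicate 3 was above wild-type replicate 2, so the groups overlapped when arrays were ignored. The mean ratio was -2.80 ± 1.17 (SD, n = 3), which is 6.96-fold, with an interval from -4.04 to -1.56, an unadjusted p of 0.00243 and an adjusted p of 0.0694 (limma, Benjamini-Hochberg). Lefty1 was the only member at least 2-fold lower on all 3 arrays, as were 1.06% of all genes.

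Lefty2, the other feedback inhibitor of Nodal on chromosome 1, was also lower on every array. Its probe, A_66_P136102 on mm9 chr1:182828893-182828952, plus strand, shared at most 5 consecutive bases with the Lefty1 probe. The level was 7.67, 8.60 and 10.25 in the mutant and 10.86, 10.10 and 10.71 in the wild type. Mutant replicates 1 and 2 were below the wild-type range and mutant replicate 3 was within it. The ratios were -3.19, -1.50 and -0.46, the last from a flagged spot. Their mean was -2.34 ± 1.19 (SD, n = 2) without that spot, unadjusted p = 0.0114 and adjusted p = 0.131 (limma, Benjamini-Hochberg), and -1.72 ± 1.38 (SD, n = 3) with it, adjusted p = 0.193.

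Cer1, an inhibitor of Nodal, BMP and Wnt ligands, stood apart from the Lefty genes, since its low ratio came from array 1 alone. Probe A_55_P1970100 on mm9 chr4:82527655-82527714, minus strand, read 7.99, 8.22 and 10.57 in the mutant and 10.78, 7.72 and 10.19 in the wild type. The lowest of the 6 Cer1 levels was wild-type replicate 2, and the groups overlapped. The ratios were -2.79, 0.50 and 0.38, with a mean of -0.64 ± 1.86 (SD, n = 3), an interval from -2.53 to 1.26 and an adjusted p of 0.692 (limma, Benjamini-Hochberg). Without replicate 1 the mean turned to 0.44.

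Otx2, a homeodomain factor needed for the forebrain and for leaving the naive state, was lower in the mutant on every array by its bright probe. A_55_P1978571 lies on mm9 chr14:49277855-49277914, minus strand. The level was 11.12, 12.65 and 14.07 in the mutant and 15.03, 14.28 and 14.56 in the wild type. The highest mutant level was below the lowest wild-type level. The mutant was 15.1-fold lower on array 1, 3.11-fold on array 2 and 1.40-fold on array 3. The wild-type levels spanned 0.75 and the mutant levels 2.96. The mean ratio was -2.01 ± 1.74 (SD, n = 3), which is 4.04-fold, with an interval from -3.79 to -0.24, an unadjusted p of 0.0337 and an adjusted p of 0.211 (limma, Benjamini-Hochberg).

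A dim Otx2 probe, A_55_P2049052 on chr14:49284952-49285011, gave smaller ratios of -0.45, -0.41 and -0.10. Its mutant spot on array 1 was not well above background. The 60 bases of this probe were found in the upstream window of an annotated Otx2 start (GRCm38.p6), where they began 227 bases before that start.

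Pou3f1, a POU factor of the primed epiblast and of neural precursors, was lower on all arrays, but hardly so on array 3. Probe A_55_P1961152 on mm9 chr4:124337692-124337751, plus strand, read 9.38, 8.81 and 10.10 in the mutant and 11.32, 9.83 and 10.19 in the wild type. Mutant replicate 3 lay within the wild-type range. The ratios were -1.93, -1.01 and -0.097. The mean was -1.01 ± 0.92 (SD, n = 3), with an interval from -2.03 to 0.0022 and an adjusted p of 0.257 (limma, Benjamini-Hochberg).

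Zic2, a zinc finger factor of the epiblast and the neural plate, was lower in the mutant on every array, and least so on array 2. Probe A_55_P1962523 on mm9 chr14:122879296-122879355, plus strand, read 10.53, 11.52 and 11.89 in the mutant and 14.74, 12.49 and 14.24 in the wild type. All mutant levels were below all wild-type levels. The mutant was 18.5-fold lower on array 1, 1.96-fold on array 2 and 5.09-fold on array 3. The mean ratio was -2.51 ± 1.63 (SD, n = 3), or 5.70-fold, with an interval from -4.18 to -0.84, an unadjusted p of 0.0123 and an adjusted p of 0.135 (limma, Benjamini-Hochberg). Otx2 and Zic2 were the only members whose mutant levels all lay below the wild-type levels, 2 of 9, against 8.49% of all genes.

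**Figure D3:**
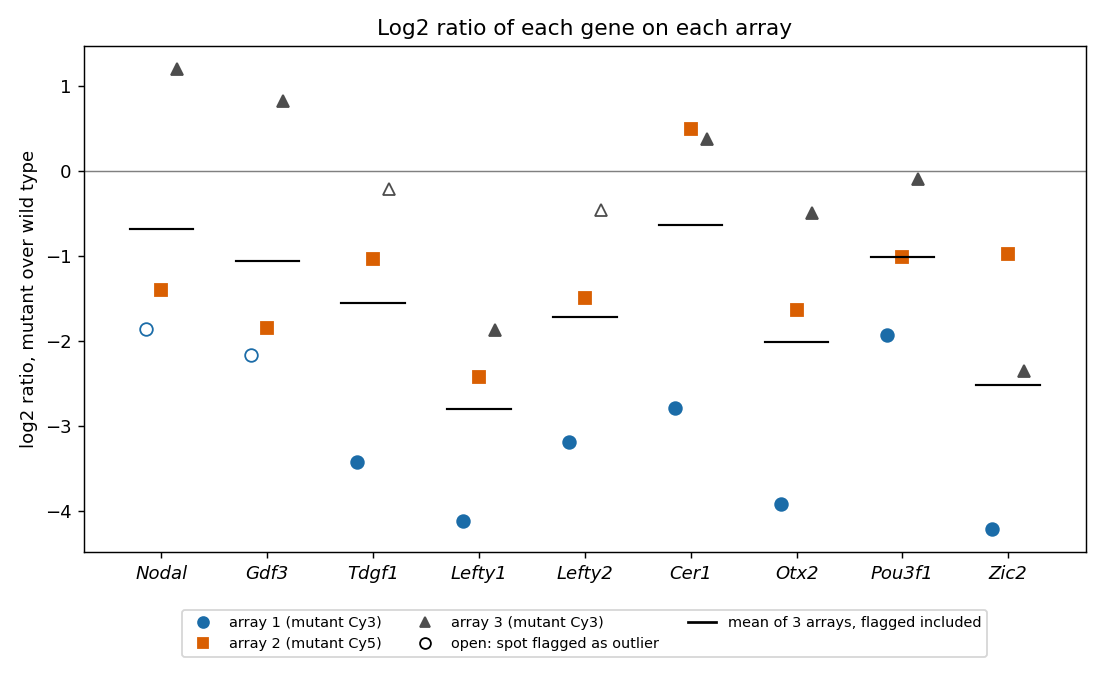
Log2 ratio of mutant over wild type for each gene on each array, by its brightest probe; open symbols are spots with an outlier flag, bars are means over the 3 arrays with those spots included, and the line at 0 marks equal levels. Array 1 is the lowest of the 3 for all 9 genes, from -1.85 to -4.21, and Nodal, Gdf3 and Cer1 are above 0 on array 3.

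The 9 genes shared a dependence on the array. With all spots counted, 9 of 9 were lower in the mutant on array 1, 8 of 9 on array 2 and 6 of 9 on array 3. Of all 20135 genes, 9719 were lower on array 1, 10029 on array 2 and 9748 on array 3. Lower on arrays 1 and 2 were 8 of 9 members, against 26% of all genes, and at least 2-fold lower on both were 7 of 9, against 2.39%. Lower on all 3 arrays were 6 of 9, against 19.1%, and of the 5 members with no flagged spot 4 were, against 19.2% of genes with 3 unflagged arrays. In addition, 2 of 9, Nodal and Gdf3, were lower on arrays 1 and 2 and higher on array 3, against 6.86%. The members' median ratio was -3.19, -1.40 and -0.22 on arrays 1, 2 and 3, where the median of all genes was 0.03, 0.0021 and 0.02.

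The members' median level differed more among the mutant replicates than among the wild-type replicates, though not every member did. Mutant replicate 3 was above mutant replicates 1 and 2 for all 9 genes, as it was for 28.2% of all genes. The members' median mutant level was 8.78, 8.81 and 11.46, and their median wild-type level 11.32, 10.35 and 11.02. The median of mutant replicate 3 was thus 2.66 above the mean of the other mutant medians. That of wild-type replicate 3 was 0.19 above the mean of the other wild-type medians. The mutant medians fell on Nodal, Pou3f1 and Gdf3 in replicates 1, 2 and 3. The 2.66 therefore compares different probes and is not the rise of any 1 gene. By gene, the mutant replicates read 10.53, 11.52 and 11.89 for Zic2 and 8.08, 8.51 and 11.46 for Gdf3. The mutant range exceeded the wild-type range for 6 of 9 genes, against 46.1% of all genes, the exceptions being Cer1, Pou3f1 and Zic2. Other gene lists also had a median mutant level in replicate 3 above the mean of the medians of replicates 1 and 2. The difference was 2.69 for 17 naive and core pluripotency genes, 1.67 for the anterior visceral endoderm and 1.58 for the primed epiblast. It was 1.56 for streak and endoderm targets, a list that shares genes with the anterior visceral endoderm list, and less for germ cells. These differences are also between list medians. The naive and core pluripotency list had a median mutant level of 10.02, 9.67 and 12.53 and a wild-type median of 11.94, 11.64 and 11.55. Its median ratio on array 3 was 0.98, where that of the members was -0.22. The part of these genes in the members' values was not tested, and in bulk RNA fewer cells of a type cannot be told apart from less RNA per cell.

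With flagged spots counted, each array was left out in turn. Without replicate 1, 2 of 9 members, Lefty1 and Zic2, had an unadjusted p under 0.05, against 8.25% of all genes in either direction. Cer1 turned to 0.44. Lefty1 was then at -2.14, Zic2 at -1.66, Otx2 at -1.06, Lefty2 at -0.98, Tdgf1 at -0.63, Pou3f1 at -0.56, Gdf3 at -0.51 and Nodal at -0.10. Array 1 thus carried a large part of the mean ratio of most members.

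Without replicate 3, all 9 mean ratios were below 0, and 8 of 9 had an unadjusted p under 0.05, against 11.9% of all genes in either direction. Lefty1 was then at -3.27, Otx2 at -2.78, Zic2 at -2.59 and Nodal at -1.62. No gene, members included, passed the adjusted threshold of limma without replicate 1 or without replicate 3, where 1662 and 2393 of 20135 genes had an unadjusted p under 0.05. Without replicate 2, which leaves 2 arrays with the mutant in Cy3, 2 of 9 members passed the adjusted threshold, Lefty1 and Zic2. So did 5199 of 20135 genes, or 25.8%, in either direction, so the members' share was near that of all genes. Genotype and dye cannot be told apart on those arrays.

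Other genes of the pathway had median ratios nearer to 0. Their lists were chosen by function, but with earlier results of these data known, as the members were. The list counts below at an unadjusted p under 0.05 stand beside 2403 higher and 1526 lower of all 20100 genes tested. Of the ligands, convertases and receptors, 9 of 10 were tested, 0 passed the adjusted threshold of limma and at an unadjusted p under 0.05 there was 1 higher and 1 lower, with a median ratio of 0.26. Acvr2b, a type II activin receptor, was at 1.13 ± 0.66 (SD, n = 3) with an adjusted p of 0.147 by the same test. Gdf1, a ligand that pairs with Nodal, was at -0.87 ± 0.23, adjusted p = 0.112, and Acvr1b, a type I receptor, at 0.52 ± 0.35, adjusted p = 0.294 (limma, Benjamini-Hochberg). Acvr1c was on the array and was not tested because it did not pass the filter on dim probes.

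Among 13 transducers and regulators, 0 passed the adjusted threshold of limma, 1 was higher and 1 lower at an unadjusted p under 0.05, and the median was -0.02, or 0.06 without replicate 2. Dand5, a Cerberus-family inhibitor of Nodal, was higher in the mutant on each array, with ratios of 1.92, 1.71 and 1.06 and a mean of 1.56 ± 0.44 (SD, n = 3), adjusted p = 0.0619 (limma, Benjamini-Hochberg). Its ratio thus had the opposite sign to those of Lefty1 and Lefty2 on each array. Ski, a Smad corepressor, was at -0.55 ± 0.08, adjusted p = 0.205, and Fst, an activin-binding protein, at -0.76 ± 0.68, adjusted p = 0.282, by the same test.

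The Nodal target genes of primitive streak and endoderm, 11 in all, had a median of 0.087, with 0 past the adjusted threshold of limma and 1 higher and 1 lower at an unadjusted p under 0.05. The mesoderm factor T (Brachyury) was at -0.70 ± 0.22, adjusted p = 0.158, and Hhex, an endoderm homeobox gene, at 1.25 ± 1.06, adjusted p = 0.222 (limma, Benjamini-Hochberg; n = 3 each). The list medians were -0.32, -0.04 and 0.88 on arrays 1, 2 and 3. On each of arrays 1 and 2, 7 of the 11 genes were lower, where 9533 and 9927 of all 20100 genes were lower. The list median turned to -0.46 without replicate 3 and to -0.11 with a dye term. Of 7 anterior visceral endoderm genes, the tissue that secretes Cer1, 0 passed the adjusted threshold of limma, 1 was higher and 1 lower at an unadjusted p under 0.05, and the list median was 0.38. The medians by array were -0.43, -0.91 and 1.42, and the list median turned to -0.87 without replicate 3 and to -0.03 with only unflagged probes. Hesx1, which is also made in the anterior neural plate, was at -1.42 ± 1.15, adjusted p = 0.201, and Foxa2 at 0.38 ± 0.27, adjusted p = 0.397, by the same test. Hhex belongs to this list too, and Foxa2, Gsc and Lhx1 are likewise in both this list and that of the streak and endoderm targets. The medians of these lists are thus not independent.

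**Figure D4:**
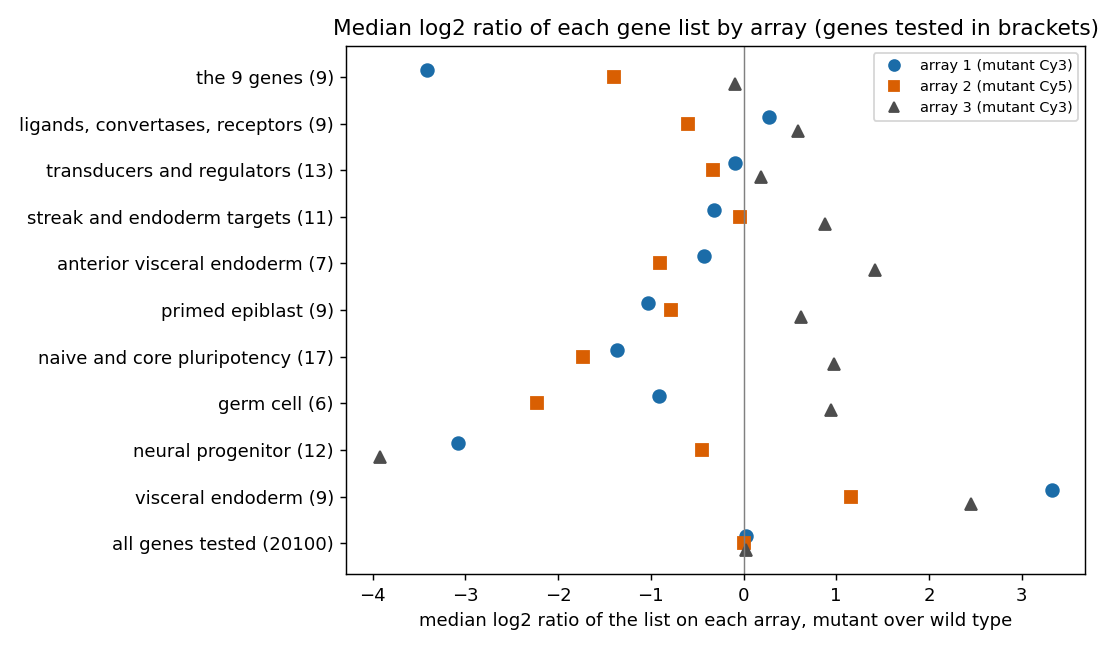
Median log2 ratio of mutant over wild type in each gene list on each array, with the number of genes tested in brackets and flagged spots left out; symbols are arrays. The 9 genes run from -3.41 on array 1 to -0.097 on array 3, the visceral endoderm list is above 0 on every array, and the neural progenitor list is lowest on array 3.

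Of 9 other genes of the primed epiblast, 0 passed the adjusted threshold of limma, 2 were lower and 0 higher at an unadjusted p under 0.05, and the median was -0.66, with -1.04, -0.79 and 0.62 on arrays 1, 2 and 3. That median turned to 0.03 without replicate 1. Zic5, of the same gene family as Zic2, was at -1.96 ± 0.99 (SD, n = 3), adjusted p = 0.0971, and Sall2, a zinc finger factor, at -1.11 ± 0.45, adjusted p = 0.106 (limma, Benjamini-Hochberg).

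Markers of other cell types moved beside the members. The 17 naive and core pluripotency genes had 0 past the adjusted threshold of limma, 2 higher and 1 lower at an unadjusted p under 0.05, and list medians of -1.36, -1.73 and 0.98 on the 3 arrays. Lower in the mutant were 12 genes of that list on array 1, 15 on array 2 and 1 on array 3, against 9533, 9927 and 9682 of all 20100 genes. The 3 with the smallest p were Tbx3 at 1.98 ± 0.78, adjusted p = 0.0708, Sox2 at -1.91 ± 1.18, adjusted p = 0.133, and Tfcp2l1 at 2.07 ± 1.88, adjusted p = 0.225 (limma, Benjamini-Hochberg). Tbx3 and Tfcp2l1 thus had the opposite sign to the list median of -0.63. The 6 germ cell genes had 0 past the threshold, 1 higher and 2 lower at an unadjusted p under 0.05, and medians of -0.91, -2.23 and 0.95. Their list median of -0.66 turned to 0.26 without replicate 2. Dnd1 was at -1.46 ± 0.44, adjusted p = 0.0676, Tfap2c at -1.66 ± 0.91, adjusted p = 0.115, and Prdm1 at 0.82 ± 0.36, adjusted p = 0.149, by the same test.

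Of the 12 neural progenitor genes, a fate in which Otx2 and Zic2 are also active, 8 were lower and 0 higher at an unadjusted p under 0.05. Of all genes tested, 7.59% were lower at that level. In the list 0 genes passed the adjusted threshold of limma. Their median mutant level was 7.47, 8.64 and 7.75 against 12.03, 8.97 and 11.73 in the wild type, so the list median of mutant replicate 3 was not high. The list's ratio medians were -3.08, -0.45 and -3.92, so as for Zic2 the difference was smallest on array 2. Dll1 was at -1.91 ± 0.86, adjusted p = 0.0838, Sox3 at -2.18 ± 1.14, adjusted p = 0.0977, and Six3 at -1.77 ± 1.05, adjusted p = 0.127 (limma, Benjamini-Hochberg; n = 3).

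Visceral endoderm genes went the other way. Of 9 tested, 8 were higher at an unadjusted p under 0.05, against 2403 of all 20100 genes. Ttr, the thyroid hormone carrier, rose by 2.59 ± 0.69 (SD, n = 3), adjusted p = 0.0495 (limma, Benjamini-Hochberg). It was the only 1 of the list past that threshold, where 0.995% of all genes were higher. The list's median mutant level was 15.51, 15.09 and 15.43 and its wild-type median 12.51, 13.88 and 12.97. Apoa4 was at 2.52 ± 0.75, adjusted p = 0.0529, and Apoa1 at 2.36 ± 1.16, adjusted p = 0.0894, by the same test. The part of these cell type markers in the members' values was not tested.

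The genes whose ratios lay nearest to a member over the arrays were listed by the root mean square distance of their log2 ratios. For Otx2 over 3 arrays, these were Sox2, Zic5, Gtsf1l, Slc27a2 and Gng3, at distances of 0.47 to 0.66, so 1 pluripotency and neural factor and 1 Zic gene were among the 5. For Nodal, with its flagged spot left out, only 2 arrays could be used and the nearest were Ddx43, Mageb16 and 3 probes without an official symbol, at 0.022 to 0.061. With the flagged spot counted, the 5 nearest over 3 arrays were Gpa33, Fgf5, Lgals3, Eras and Jakmip1, at 0.16 to 0.22. Fgf5, the primed epiblast growth factor, had ratios of -2.07, -1.26 and 1.35. These distances describe 3 arrays and carry no test.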

How the data were processed

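Total RNA was prepared with TRIzol and RNeasy, 1 ug was amplified, and 300 ng of cRNA in each dye was hybridised, per the labels' protocols. The deposited scanner files hold spot and background brightness as intensity and a log10 ratio of red over green from Feature Extraction 10.7.3.1, Agilent's scanner software, per the file headers; probe coordinates are mm9. The authors' deposited table holds log2 ratios; limma is named for it in the submitters' processing notes with no version, and its centring and background steps are not known. Against the scanner's log ratios over 9917 spots its columns had slopes of 0.91, 0.93 and 0.98, and its medians were -0.02, 0.02 and -0.01.

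In R 4.3.3 with limma 3.58.1, mean intensities were corrected with normexp (offset 50), with local background limited to 100 units, a limit taken from earlier work on these data, and normalized by loess within arrays. Flagged outlier and control spots were left out. Probes well above background in 1 genotype on all 3 arrays were kept (26320 of 39429). With values required on at least 2 arrays, 26265 probes could be tested, and the brightest of them stood for each of 20100 genes. The two-sided test of each ratio against 0 used lmFit and eBayes, Benjamini-Hochberg adjusted p-values and a threshold of 0.05, with 4.71 degrees of freedom including the prior for a gene on all 3 arrays. Channel levels were made with Aquantile after loess. Symbols came through RefSeq (GRCm38.p6) from the accession for 27234 probes, the symbol for 3576 and a synonym for 565, and 8054 probes stayed with the file's name.

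The members and gene lists were chosen with earlier results of these data known. Named are the 9 members, up to 3 genes of each list with the smallest p and any past the threshold, and the 5 genes nearest to Nodal and Otx2; other genes were named after their values were seen. Some genes that this rule takes are not reported here. The alternatives tried were other background limits and offsets, the scanner's log ratio, uncorrected background, other normalizations and filters, another summary of probes, a dye term, an intensity trend, leaving out a replicate and the authors' values. Settings that keep flagged spots, and the setting with only unflagged probes, were chosen after seeing the data. The fit was tested on simulated data with 20100 genes: where 100 genes were shifted by 1 log2 unit 82%, and where 100 were shifted by 2 units 94%, had an unadjusted p under 0.05 and 0 passed the adjusted threshold.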

Additional observations from a re-analysis of the deposited data

How the results depend on the processing

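Of 264 genes past the adjusted threshold, the count became 0 with the local background not limited (3029 at an unadjusted p under 0.05), with no filter on dim probes (4857) and with the authors' values (3864). It became 676 with an offset of 16, 754 with the scanner's log ratio, 530 with an intensity trend, 518 with probes tested singly, 2484 with a dye term and 2527 with a dye term and flagged spots kept. Leaving out 1 replicate gave 0 to 5045 genes, and 0 to 5199 with flagged spots kept: 0 without replicate 1 or 3, and the highest counts without replicate 2. The number of the 9 genes past the threshold was 0 in most settings and 1 with a dye term (Lefty1), also with flagged spots kept. It was 0 to 2 when 1 replicate was left out, with 2 (Lefty1 and Zic2) without replicate 2. With flagged spots left out, only 5 of the 9 were tested with a dye term or without replicate 2. There, 2484 of 19649 genes passed with a dye term and 5045 of 19649 without replicate 2. The causes were not tested.

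Lefty1 stayed below 0 in all 24 alternatives, from -3.32 to -2.14, and passed the threshold in 4, with adjusted p from 0.0353 to 0.322 (limma). Otx2 (-2.78 to -1.06), Pou3f1 (-1.47 to -0.56), Zic2 (-3.28 to -1.66) and Lefty2 (-2.86 to -0.98) also kept their sign in each alternative that gave a value. Nodal turned to 0.19 and Gdf3 to 0.048 with the local background not limited. Cer1 ran from -1.21 without replicate 2 to 0.44 without replicate 1, with flagged spots left out or kept. Tdgf1 turned to 0.098 with only unflagged probes, where a dimmer probe stood for the gene. With the dye term or a replicate left out, genes left with too few arrays had no test. No separate paired analysis was possible because each array already pairs 1 mutant with 1 wild-type sample.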
